A study of Mus musculus with 6 samples.

Results

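The 10 genes described here encode proteins that cells secrete or shed to signal to other cells: the chemokines Cxcl1, Cxcl5, Cxcl10, Cxcl16, Cx3cl1, Ccl2 and Ccl20, and the cytokines Il11, Lif and Csf1. They were taken by symbol from the count table, in which they are 10 of 21240 genes. Chemokines bind G protein-coupled receptors and draw leukocytes toward their source, and epithelial cells are a main source of them in injured or infected tissue. IL-11 and LIF signal through receptors that share the gp130 chain and activate STAT3, and CSF1 sustains the survival and growth of macrophages. TGFβ is known both as an inducer of epithelial-mesenchymal transition and as a regulator of inflammatory signals.

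NMuMG cells are an epithelial line derived from normal mouse mammary gland. Stranded total RNA was sequenced from cells kept without serum and insulin for 6 h and then given TGFβ1 at 5 ng/ml for 2 h, TGFβ1 at 5 ng/ml for 12 h, or the carrier with albumin alone (vehicle) for 2 h. Each of these 3 groups had 2 biological replicates, 6 libraries in all. Since vehicle was taken at 2 h only, the effect of TGFβ1 at 12 h and that of a longer time without serum cannot be told apart. Total counts were 16251758 and 14705886 in the vehicle libraries, 20578661 and 19904400 at 2 h, and 23786993 and 20142492 at 12 h. Levels are given as CPM, the counts relative to the library size in units of 1e6 after scaling by the TMM factors of edgeR, replicate 1 first, and differences as log2 fold changes (log2FC) with the standard error (SE) of edgeR's quasi-likelihood fit. A gene was called at an adjusted p under 0.05 (Benjamini-Hochberg, over the 11080 genes that reached 2 CPM in 2 or more libraries).

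The epithelial label was checked against 8 markers. Their summed level was 5786 and 4965 CPM in vehicle and 10332 and 10379 CPM at 12 h, with Krt18 the most abundant, and Cdh1 was counted at 338 to 609 CPM in the 6 libraries. The sum hides opposite changes: Krt18 and Krt8 were higher at 12 h (log2FC 1.53 and 1.63), while Krt19 went from 1847 and 1666 CPM in vehicle to 420.4 and 489.8 CPM (log2FC -1.95). Epcam had at most 16 counts in a library, Cldn3 at most 1 and Cldn7 at most 7, so that these defining epithelial markers were at or near 0. Of 12 leukocyte markers, Tyrobp and Cd3e were at 0 in every library, Laptm5 had at most 1 count and Ptprc at most 4, but Csf1r had 8 to 22 counts and Cd68 95 to 124 (4.14 to 6.57 CPM) in each library. Their summed level, 108 to 181 CPM, came mostly from Cd14, which epithelial cells can also express. Cd14 was lower at 12 h than in vehicle (log2FC -0.51, edgeR's adjusted p = 0.00678), a call lost without 12 h replicate 1 (log2FC -0.47). Of 7 fibroblast markers, whose sum was 3.51 to 16.0 CPM, Thy1 was at 0, Col1a1 rose (log2FC 2.59 at 2 h and 3.51 at 12 h) and Pdgfra, the other one tested, did not pass the test at either time (-0.01 and 0.09). Of those not tested, Dcn had 10 and 1 counts in vehicle and 1 and 0 at 12 h, and Pdgfrb 0 and 0 in vehicle and 22 and 26 at 12 h. A list of 5 endothelial markers summed to 0.412 and 0.446 CPM in vehicle and to 1.96 and 2.21 CPM at 12 h. The most abundant of them, Cdh5, had 1 and 2 counts in vehicle and 39 and 36 at 12 h, and was not tested. All 8 genes of a list of direct TGFβ responses rose at both times, with a median log2FC of 3.06 at 2 h and 3.91 at 12 h (9.91% and 21.8% of all genes were higher). Of this list, Ltbp2 reached the filter on low counts only in the 12 h libraries and was not called at 2 h in 6 alternatives (edgeR's adjusted p = 0.0870 to 0.175), and Tgif1 was not called at 2 h without vehicle replicate 2 (adjusted p = 0.0754). Col1a1 reached the filter only in treated libraries.

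Most of the chemokine and cytokine genes tested differed from vehicle, in both directions. Cxcl10 did not reach the filter on low counts, which left 9 of the 10 genes tested. At 2 h against vehicle, 5 of the 9 were higher (Cxcl16, Cx3cl1, Ccl2, Il11 and Csf1), where 9.91% of all genes tested were higher, and 3 were lower (Cxcl1, Cxcl5 and Ccl20), where 5.25% of all genes were lower. At 12 h against vehicle, 4 were higher (Cxcl16, Il11, Lif and Csf1), against 21.8% of all genes, and 5 were lower (Cxcl1, Cxcl5, Cx3cl1, Ccl2 and Ccl20), against 21.5%. The comparison of 12 h with 2 h, which asks how the response changes with time, had 3 higher (Il11, Lif and Csf1; 15.2% of all genes) and 5 lower (Cxcl5, Cxcl16, Cx3cl1, Ccl2 and Ccl20; 18.9% of all genes). The 8 calls at 2 h depended on the libraries used: 5 were made in the fit of the vehicle and 2 h groups alone and 4 to 7 with each library left out, against 7 to 9 at 12 h. With an absolute log2FC above 1 as well, 6 of the 9 were called at 2 h (6.25% of all genes), 7 at 12 h (19.6%) and 7 between the times (14.4%). Il11 reached the filter only in the 12 h libraries and Ccl20 only in vehicle, so that both had to differ to be tested, and the counts of members are a description. In bulk RNA, fewer cells of a type and less RNA per cell cannot be told apart.

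**Figure D1:**
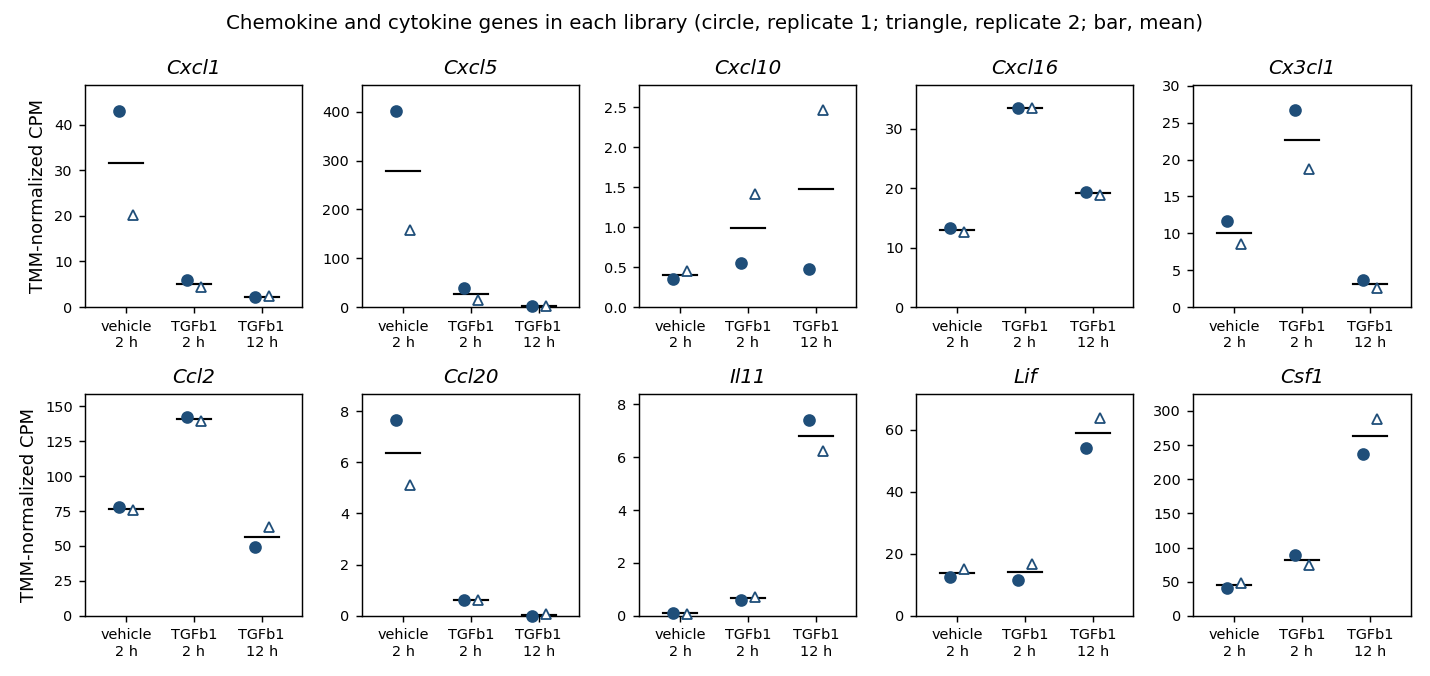
TMM-normalized CPM (vertical axis, linear, from 0) of the 10 genes in vehicle, TGFβ1 2 h and TGFβ1 12 h libraries, with circles for replicate 1, triangles for replicate 2 and bars for the mean of both. Cxcl1, Cxcl5 and Ccl20 are highest in vehicle, Cxcl16, Cx3cl1 and Ccl2 at 2 h, and Il11, Lif and Csf1 at 12 h.

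Cxcl1 and Cxcl5 belong to the CXC chemokines that recruit neutrophils through the receptor CXCR2, and Ccl20 draws cells that bear CCR6, such as Th17 cells and some dendritic cells. Cxcl5 (Entrez 20311) was counted at 401 and 157 CPM in vehicle, 39.6 and 14.6 CPM at 2 h, and 2.14 and 1.80 CPM at 12 h. The groups did not overlap, and replicate 1 was above replicate 2 by 2.55-fold in vehicle and 2.72-fold at 2 h. Its log2FC was -3.36 at 2 h (SE 0.585, edgeR's adjusted p = 0.0123) and -7.14 at 12 h (SE 0.743, adjusted p = 0.000514). The call at 2 h was lost in the fit of the vehicle and 2 h groups alone (log2FC -3.37, edgeR's adjusted p = 0.0506). The further loss between the times was also called, at a log2FC of -3.77 (SE 0.699, edgeR's adjusted p = 0.00769), but not without 12 h replicate 1 (log2FC -3.92, adjusted p = 0.0714) or 2 (-3.67, adjusted p = 0.0730).

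Cxcl1 (14825) had 43.1 and 20.1 CPM in vehicle, 5.92 and 4.29 CPM at 2 h, and 2.22 and 2.31 CPM at 12 h. Both treated groups lay below both vehicle libraries, which themselves differed by 2.14-fold. The log2FC was -2.63 at 2 h (SE 0.379, edgeR's adjusted p = 0.00621) and -3.80 at 12 h (SE 0.409, adjusted p = 0.000593). Between 2 h and 12 h the log2FC was -1.17 (SE 0.406), which did not pass the test (edgeR's adjusted p = 0.0663). It did pass in 6 of 14 alternatives. Among them were the fit of these 2 groups alone (edgeR's adjusted p = 0.0258) and that with the replicate number as a block (0.00756). The difference also passed without vehicle replicate 1 or 2 (log2FC -1.17 each). No source says that the numbers pair the libraries.

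Ccl20 (20297) had 130 and 80 counts in vehicle, 12 and 12 at 2 h, and 0 and 1 at 12 h, or 7.66 and 5.10, 0.607 and 0.606, and 0 and 0.0514 CPM. It was thus near the limit of detection after 12 h, at a depth where 3 counts in a library equal 0.131 to 0.191 CPM. The log2FC at 2 h was -3.38 (SE 0.400, edgeR's adjusted p = 0.00300). At 12 h the summed counts were 273-fold lower than in vehicle, with a 95% counting interval of 48.4 to 10818 that rests on 1 count (edgeR's adjusted p = 0.000208). It was also lower at 12 h than at 2 h, by 25.7-fold in summed counts (4.19 to 1058, edgeR's adjusted p = 0.00844), which did not pass the test without 12 h replicate 1 (adjusted p = 0.0563).

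Cxcl16 and Cx3cl1 are the chemokines made as transmembrane proteins, which tether cells at the surface and attract them once shed. Cxcl16 (66102), the ligand of CXCR6, had 13.3 and 12.7 CPM in vehicle, 33.6 and 33.5 CPM at 2 h, and 19.4 and 18.9 CPM at 12 h. The replicates lay close together in each group, and the groups did not overlap. The log2FC was 1.37 at 2 h (SE 0.122, edgeR's adjusted p = 0.00114) and 0.56 at 12 h (SE 0.122, adjusted p = 0.0104), and it fell by 0.81 between the times (SE 0.119, adjusted p = 0.00333). The difference at 12 h did not pass the test without vehicle replicate 2 (log2FC 0.53, edgeR's adjusted p = 0.0649) or without 12 h replicate 1 (0.53, adjusted p = 0.0708) or 2 (0.56, adjusted p = 0.0584).

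Cx3cl1 (20312), or fractalkine, the ligand of CX3CR1, had 11.7 and 8.54 CPM in vehicle, 26.7 and 18.7 CPM at 2 h, and 3.62 and 2.57 CPM at 12 h. It was above vehicle at the early time and below it at the late time, with no overlap between groups. The log2FC was 1.16 at 2 h (SE 0.266, edgeR's adjusted p = 0.0319) and -1.70 at 12 h (SE 0.288, adjusted p = 0.00374), and the difference between the times was -2.87 (SE 0.289, adjusted p = 0.000900). The call at 2 h was lost in 6 of 14 alternatives, with edgeR's adjusted p up to 0.154 and a log2FC from 0.87 to 1.41. These were the fit of the vehicle and 2 h groups alone and those without vehicle replicate 1 (log2FC 1.41), vehicle replicate 2 (0.96), 2 h replicate 1 (0.87), or 12 h replicate 1 or 2 (1.16 each).

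Of 7 genes of sheddases, furin and their regulators, 4 rose at 2 h, and 4 rose and 1 fell at 12 h (9.91% of all genes higher at 2 h, 21.8% higher and 21.5% lower at 12 h), with a median log2FC of 0.60 and 0.49 (all genes tested, -0.01 and 0.02). None of the 4 that rose was a sheddase. Timp3, an inhibitor of ADAM17 and other metalloproteinases, went from 13 and 7 counts in vehicle to 218 and 186 at 2 h and 1041 and 861 at 12 h (log2FC 4.05 and 6.18). The proprotein convertase Furin (log2FC 1.58 and 1.57) and the iRhoms Rhbdf1 (1.17 and 1.04) and Rhbdf2 (0.60 and 0.49), which escort ADAM17 to the surface, rose at both times, although the call of Rhbdf2 at 2 h was lost without vehicle replicate 1 or 2 (edgeR's adjusted p = 0.0736 and 0.0543). Of the sheddases, Adam17 fell at 12 h (log2FC -0.69, edgeR's adjusted p = 0.00201), and Adam10 (0.11 and 0.08) and Adam9 (0.17 and -0.35) did not pass the test against vehicle.

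Ccl2 (20296), which attracts monocytes through CCR2, had 77.7 and 75.5 CPM in vehicle, 143 and 139.7 CPM at 2 h, and 48.9 and 63.7 CPM at 12 h. As for Cx3cl1, both libraries at 2 h were above and both at 12 h below the vehicle libraries. The log2FC was 0.88 at 2 h (SE 0.138, edgeR's adjusted p = 0.00839) and -0.44 at 12 h (SE 0.139, adjusted p = 0.0397), with -1.33 between the times (SE 0.140, adjusted p = 0.00103). Without vehicle replicate 1 or 2 neither call against vehicle was made (edgeR's adjusted p 0.0577 and 0.0606 at 2 h, 0.142 and 0.113 at 12 h), and without 12 h replicate 1 the log2FC at 12 h was -0.28 (adjusted p = 0.166).

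Ccl7, which shares CCR2 with Ccl2, begins 10141 bp from it and is the next counted gene along chromosome 11. It had 3.36 and 4.14 CPM in vehicle, 11.8 and 9.94 CPM at 2 h, and 8.02 and 10.8 CPM at 12 h, all treated libraries above vehicle. It rose at 2 h (log2FC 1.54, SE 0.237, edgeR's adjusted p = 0.00785) and was still higher at 12 h (1.32, SE 0.237, adjusted p = 0.00473), the time at which Ccl2 was lower. Without vehicle replicate 1 the call of Ccl7 at 2 h was lost (log2FC 1.39, edgeR's adjusted p = 0.0626). Whether Ccl2 and Ccl7 differ in their response at 12 h was not tested. Cxcl10 (15945), an interferon-induced chemokine that binds CXCR3, had 6 and 7 counts in vehicle, 11 and 28 at 2 h, and 11 and 48 at 12 h. Replicate 1 at 12 h had no more than replicate 1 at 2 h, and in the fit without a filter its log2FC was 1.29 at 2 h (SE 0.841, edgeR's adjusted p = 0.438) and 1.84 at 12 h (SE 0.812, adjusted p = 0.123).

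Il11 (16156) encodes a gp130 cytokine that acts on stromal and epithelial cells. It had 2 and 1 counts in vehicle, 12 and 14 at 2 h, and 170 and 121 at 12 h, or 0.118 and 0.0637, 0.607 and 0.707, and 7.41 and 6.22 CPM. Each group lay apart from the next, from near the limit of detection to a clear signal. The summed counts were 7.15-fold higher than in vehicle at 2 h (95% counting interval 2.19 to 36.9) and 74.7-fold higher at 12 h (25.3 to 364). The test gave edgeR's adjusted p = 0.0157 at 2 h and 0.000104 at 12 h, and the log2FC between the times was 3.36 (SE 0.291, adjusted p = 0.000564). The log2FC at 2 h was 2.76 and dropped to 1.96 with a prior count of 2, which leaves the test as it is. The call at 2 h was lost in 5 of the 13 other alternatives (edgeR's adjusted p up to 0.0998, log2FC 2.42 to 3.24), namely the fit of the vehicle and 2 h groups alone and those without vehicle replicate 1 (log2FC 3.24) or 2 (2.42), 2 h replicate 2 (2.64) or 12 h replicate 1 (2.74).

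Lif (16878), known for keeping mouse stem cells undifferentiated and as a gp130 cytokine of many tissues, had 12.4 and 14.9 CPM in vehicle, 11.5 and 16.6 CPM at 2 h, and 54.0 and 63.6 CPM at 12 h. The 2 h libraries spanned both vehicle libraries, and both 12 h libraries were above them. At 2 h the log2FC was 0.04 (SE 0.210, edgeR's adjusted p = 0.926). At 12 h it was 2.11 against vehicle (SE 0.210, edgeR's adjusted p = 0.000436) and 2.07 against 2 h (SE 0.208, adjusted p = 0.000900).

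Csf1 (12977), the macrophage colony-stimulating factor, had 41.2 and 48.1 CPM in vehicle, 88.8 and 73.9 CPM at 2 h, and 237 and 289 CPM at 12 h. Its 3 groups did not overlap and rose in the order of time. The log2FC was 0.87 at 2 h (SE 0.156, edgeR's adjusted p = 0.0141) and 2.56 at 12 h (SE 0.162, adjusted p = 9.1e-05), with 1.69 between the times (SE 0.156, adjusted p = 0.000688). Without vehicle replicate 1 the log2FC at 2 h was 0.76 and did not pass the test (edgeR's adjusted p = 0.0975).

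**Figure D2:**
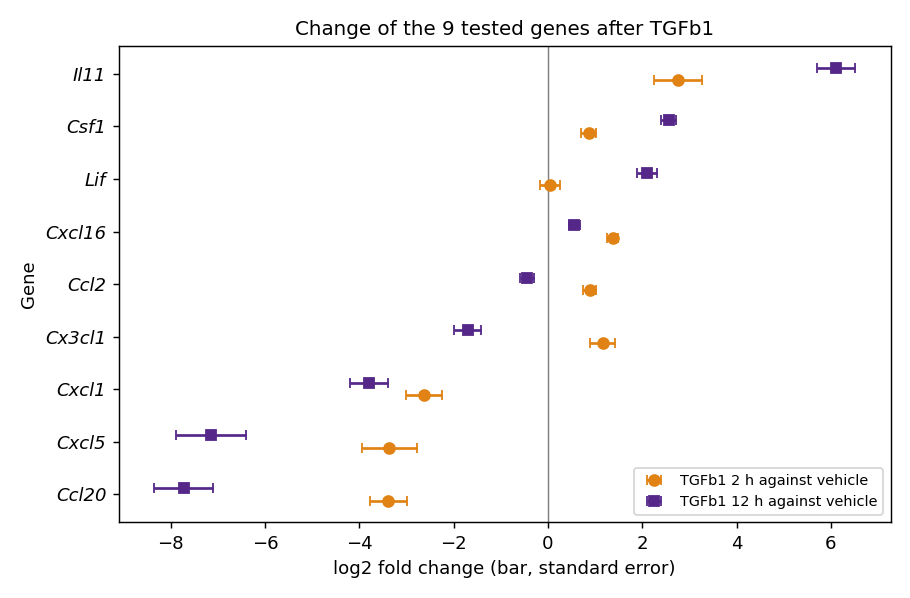
log2FC (horizontal axis) of the 9 tested genes (vertical axis) at 2 h (circles) and 12 h (squares) of TGFβ1 against the same vehicle libraries, with bars for the SE. Il11 and Csf1 lie to the right at both times, Cxcl1, Cxcl5 and Ccl20 to the left at both times, and Cx3cl1 and Ccl2 change side, at 1.16 and -1.70 and at 0.88 and -0.44.

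Both comparisons with vehicle share their control libraries, so the 2 columns of values are not independent. To compare levels between genes, CPM were divided by the summed exon length of each gene. In vehicle, Cxcl5 had 169 ± 104 CPM per kb (SD, n = 2), Ccl2 67.3 ± 1.33 and Cxcl1 33.2 ± 17.0. Both vehicle libraries of Cxcl5 (242 and 94.9) were above both of Ccl2 (68.3 and 66.4), although the means differed by no more than the SD of Cxcl5. Cxcl1 lay below Ccl2. At 2 h the order was led by Ccl2 at 124 ± 1.74 CPM per kb, with Cxcl5 at 16.4 ± 10.7, Csf1 at 15.5 ± 2.00 and Cxcl16 at 11.1 ± 0.0122. Cxcl5 did not differ beyond its spread from Csf1 or Cxcl16, while Csf1 lay above Cxcl16. At 12 h Csf1 at 49.9 ± 7.01 and Ccl2 at 49.5 ± 9.17 CPM per kb lay within each other's spread, followed by Lif at 13.5 ± 1.57, Cxcl16 at 6.33 ± 0.105 and Il11 at 5.17 ± 0.640. Il11, at 0.0688 ± 0.0290 CPM per kb, had been the lowest of the 10 genes in vehicle.

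The summed level of the 10 genes was 608 and 343 CPM in vehicle, 350.4 and 304 CPM at 2 h, and 375 and 451 CPM at 12 h. Vehicle overlapped both other groups in this sum, and both 12 h libraries were above both at 2 h. Its largest part passed from Cxcl5 in vehicle to Csf1 at 12 h.

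Other ligands of the family were mostly silent. Of 30 other chemokine genes, 19 had at most 3 counts in every library, and 11 of these 19 were at 0 in all of them. The 3 that were tested were Ccl7, Ccl9 and Ccl25, of which 1 was higher at 2 h and 1 at 12 h (Ccl7 both times) and none lower against vehicle, where 9.91% and 21.8% of all genes were higher and 5.25% and 21.5% lower. The median log2FC was 0.21 at 2 h and 0.37 at 12 h. Ccl9 was lower at 12 h than at 2 h (log2FC -0.88, edgeR's adjusted p = 0.0315), but not without 2 h replicate 1 (-0.81, adjusted p = 0.0698) or 12 h replicate 1 (-0.66, adjusted p = 0.173) or 2 (-1.14, adjusted p = 0.0573).

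The receptors of the member chemokines had at most 28 counts in a library, and none was tested. Cxcr2, the receptor of Cxcl1 and Cxcl5, had at most 2 counts in a library, Ccr2 at most 1, and Cxcr6 and Ccr6 had 0 in all 6, which allows at most 0.131 to 0.191 CPM by counting error alone. Cxcr3 had at most 8 counts. Cx3cr1, the receptor of Cx3cl1, had 3 and 6 counts in vehicle, 15 and 28 at 2 h, and 25 and 19 at 12 h. Of 23 chemokine receptor genes, 16 had at most 3 counts in every library. The single one tested was Ackr3, a scavenging receptor of CXCL12, with 7.77 and 10.1 CPM in vehicle, 15.2 and 24.9 CPM at 2 h, and 53.6 and 51.6 CPM at 12 h. It rose at 2 h (log2FC 1.17, SE 0.256, edgeR's adjusted p = 0.0277) and at 12 h (2.56, SE 0.260, adjusted p = 0.000470). The call at 2 h was lost in the fit of the 2 groups alone (edgeR's adjusted p = 0.0857) and without vehicle replicate 1 (log2FC 0.99, adjusted p = 0.155) or 2 (1.37, adjusted p = 0.0690) or 12 h replicate 1 (adjusted p = 0.0806) or 2 (0.0801).

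For the cytokines, the receptor side differed between Il11 and Lif. Lifr, the specific receptor chain of LIF, had at most 2 counts in any library, Osmr at most 1 and Cntfr 0. Il11ra1, the specific chain for IL-11, was counted at 13.8 and 13.0 CPM in vehicle, 13.6 and 13.1 CPM at 2 h, and 6.84 and 9.14 CPM at 12 h, a value that is uncertain because the mouse genome holds near-identical copies of this gene. Il6st, which encodes gp130, had 185 and 187 CPM in vehicle, 198 and 190.1 CPM at 2 h, and 117 and 127 CPM at 12 h. Of the 4 genes tested among 8 receptors of this family, 1 rose at 2 h and none fell (of all genes, 9.91% and 5.25%). At 12 h 1 rose and 3 fell (of all genes, 21.8% and 21.5%). The median log2FC was 0.06 at 2 h and -0.68 at 12 h. The 3 that fell at 12 h were Il11ra1 (log2FC -0.75), Il6st (-0.61) and Il6ra (-0.93). Without vehicle replicate 1 or 12 h replicate 1 neither Il11ra1 (edgeR's adjusted p = 0.0850 and 0.0971) nor Il6ra (0.0582 and 0.0730) was called, nor was Il11ra1 without vehicle replicate 2 (adjusted p = 0.0609).

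Csf1r, the receptor of CSF1, had 8 to 22 counts in a library and was not tested. Il34, the other ligand of that receptor, rose as Csf1 did, from 1.71 and 1.53 CPM in vehicle to 5.42 and 4.74 CPM at 2 h and 8.89 and 9.04 CPM at 12 h (log2FC 1.64 and 2.46, edgeR's adjusted p = 0.00447 and 0.000272). Of 41 other cytokine genes, 13 were tested, of which 2 rose and 3 fell at 2 h, and 3 rose and 5 fell at 12 h, with a median log2FC of -0.16 and 0.00 (of all genes, 9.91% rose and 5.25% fell at 2 h, and 21.8% and 21.5% at 12 h). Besides Il34, those that rose were Clcf1, another gp130 cytokine (log2FC 0.76 and 0.43), and at 12 h Mif (0.93). The call of Clcf1 at 12 h was lost in 5 alternatives (edgeR's adjusted p up to 0.135) and at 2 h without vehicle replicate 2 (0.0609), and that of Mif without 12 h replicate 1 (0.0598). Il33, an alarmin kept in the nucleus, had 28.7 and 22.8 CPM in vehicle, 14.6 and 15.0 CPM at 2 h, and 1.05 and 1.13 CPM at 12 h (log2FC -0.80 and -4.56). Kitl, the stem cell factor, fell from 300 and 255 CPM to 156 and 97.8 CPM at 2 h and 65.3 and 50.5 CPM at 12 h (log2FC -1.13 and -2.26). Tnfsf9 fell at both times (-1.39 and -2.14), and Il18 (-1.23) and Tnfsf12 (-1.53) fell at 12 h. The calls at 2 h of Il33, Kitl and Tnfsf9 were lost in the fit of the 2 groups alone (edgeR's adjusted p = 0.0586, 0.0651 and 0.0732) and without vehicle replicate 1 (0.158, 0.117 and 0.0510) or either 12 h library. Further losses at 2 h were Tnfsf9 without vehicle replicate 2 (edgeR's adjusted p = 0.185) or 2 h replicate 1 (adjusted p = 0.0739), Kitl without vehicle replicate 2 (0.0653) and Il33 without 2 h replicate 2 (0.0543). That of Il18 at 12 h was lost without vehicle replicate 1 (edgeR's adjusted p = 0.119) or 12 h replicate 1 (0.123) or 2 (0.106).

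The 10 genes lie on 6 chromosomes, with positions on NCBIM37 (mm9). Cxcl5 (chr5:91188325-91190651), Cxcl1 (chr5:91320267-91322141) and Cxcl10 (chr5:92775664-92777915) are on the same chromosome, where Cxcl5 and Cxcl1 belong to one cluster of CXC genes on the plus strand. The neighbours of Cxcl1 in that cluster, Cxcl15, Cxcl3 and Cxcl2, were low. Cxcl15 had 42 and 8 counts in vehicle, 16 and 6 at 2 h and 0 at 12 h, with most of the vehicle counts in replicate 1, and Cxcl3 and Cxcl2 had at most 1 count in a library. On the other side of Cxcl5, Rassf6 had 83.5 and 77.6 CPM in vehicle, 43.3 and 38.5 CPM at 2 h and 20.9 and 23.4 CPM at 12 h, a fall at both times (log2FC -0.98 and -1.86). Cxcl16 (chr11:70267485-70273486, minus strand) starts 551 bp from Zmynd15 on the opposite strand, which overlaps it and had 9 to 26 counts, and reads were counted by strand. The start of Il11 (chr7:4724669-4734460, minus strand) is 82 bp from that of Tmem190, which had at most 1 count in a library while Il11 rose.

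Of the 40 counted genes that are the first or second neighbour of a member, 16 were tested, of which 1 rose and 1 fell at 2 h, and 2 rose and 5 fell at 12 h. Of all genes, 9.91% rose and 5.25% fell at 2 h, and 21.8% and 21.5% at 12 h, and no difference between neighbours and other genes was tested. Those that rose at 12 h were Ccl7 and Gatsl3, which lies 39332 bp from Lif (chr11:4157560-4172517) and had 0.353 and 0.637 CPM in vehicle, 0.405 and 0.707 CPM at 2 h and 3.53 and 3.60 CPM at 12 h. Gatsl3 reached the filter only in the 12 h libraries, so that it had to rise to be tested. Osm, a gp130 cytokine gene between Gatsl3 and Lif, had at most 1 count in a library. The 5 that fell at 12 h were Rassf6 and Afm near Cxcl5, Eps8l3 and Gstm5 near Csf1, and Coq9 near Cx3cl1. In that order their log2FC against vehicle was -1.86, -3.79, -3.78, -0.76 and -0.62. At 12 h Csf1 itself rose, while Cxcl5 and Cx3cl1 fell. Eps8l3 had 107 and 66 counts in vehicle and 10 and 6 at 12 h. The log2FC of Gstm5 was -0.53 without vehicle replicate 1, and that of Coq9 was -0.47 without 12 h replicate 1.

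The gene most like each member was sought among all genes tested, by the root mean square difference of centred log2 CPM over the 6 libraries. It was Mx2 for Cxcl1 (0.275), 8430408G22Rik for Cxcl5 (0.584), Cmip for Cxcl16 (0.0463), Dgat2 for Cx3cl1 (0.246), Padi2 for Ccl2 (0.0667), Ifit3b for Ccl20 (0.377), Cd40 for Il11 (0.0928), Dusp7 for Lif (0.0893) and Ttc39c for Csf1 (0.117). No chemokine or cytokine was among them. Cd40, with 1 and 1 counts in vehicle, 9 and 12 at 2 h, and 150 and 112 at 12 h, followed the counts of Il11 closely, and Padi2, at 121 and 125, 241 and 245, and 87.0 and 113 CPM, went up and down as Ccl2 did.

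Promoter windows from 250 bases before to 50 after the start were taken from RefSeq (GRCm38.p6), which gave windows for 7 of the 10 genes, with 2 for Il11. Each of the 8 windows had 1 exact match in NCBIM37, whose coordinates are given. Cxcl5, Cxcl16 and Ccl2 had no entry. Both strands were searched for letters of NF-kB (GGNNTTTCC and GGGNNTTCC, which can overlap), found in 5.83% and 5.85% of 32544 windows of this length, and of AP-1 (TGANTCA), found in 7.79%. For SMAD they were CAGACA (20.9% of windows) and GTCTAGAC (0.215%). The TATA letters were TATAAA (13.6%) and those of ISRE were GAAANNGAA (8.53%). For CRE the search was for TGACGTCA (1.80%), and for C/EBP it was for TTGCNNAA (10.8%). The genes with NF-kB letters were Cxcl1, Ccl20, Csf1 and Cxcl10, and those with AP-1 letters were Il11, Lif and Cxcl10. Cxcl10 also held ISRE letters (at -213, GAAAGTGAA), and Cx3cl1 the TATA letters, while none of the 8 windows held those of SMAD, CRE or C/EBP. A match is a description of the letters and not a site.

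The upstream stretches of genes that fell (Cxcl1 and Ccl20) and rose (Csf1, Il11 and Lif) are shown with these letters in capitals, 150 bases each on the gene's own strand, 5′ to 3′, with positions counted from the RefSeq start. None of them overlaps an annotated exon. They are Cxcl1 from -160 to -11 (chr5:91320111-91320260, plus strand), Ccl20 from -150 to -1 (chr1:83113191-83113340, plus), Csf1 from -200 to -51 (chr3:107563438-107563587, minus), Il11 from -150 to -1 before its downstream start (chr7:4729744-4729893, minus) and Lif from -250 to -101 (chr11:4157321-4157470, plus). Capitals mark NF-kB letters in Cxcl1, Ccl20 and Csf1 and AP-1 letters in Il11 and Lif.
Cxcl1: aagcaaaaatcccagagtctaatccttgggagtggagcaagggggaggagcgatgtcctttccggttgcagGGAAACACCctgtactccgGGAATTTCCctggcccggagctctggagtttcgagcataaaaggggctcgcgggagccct
Ccl20: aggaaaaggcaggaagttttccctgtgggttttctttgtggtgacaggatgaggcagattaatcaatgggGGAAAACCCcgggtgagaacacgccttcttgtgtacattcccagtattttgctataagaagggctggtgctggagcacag
Csf1: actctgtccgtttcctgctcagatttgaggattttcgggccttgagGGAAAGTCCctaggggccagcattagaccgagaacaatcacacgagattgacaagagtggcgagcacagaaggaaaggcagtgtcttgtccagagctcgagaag
Il11: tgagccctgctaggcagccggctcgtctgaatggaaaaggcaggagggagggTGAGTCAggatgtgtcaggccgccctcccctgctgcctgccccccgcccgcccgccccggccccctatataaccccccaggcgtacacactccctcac
Lif: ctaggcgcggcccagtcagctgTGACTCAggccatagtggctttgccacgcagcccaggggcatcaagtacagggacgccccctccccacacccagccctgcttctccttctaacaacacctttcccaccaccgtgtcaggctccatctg
Cxcl1 and Ccl20, which fell at both times, and Csf1, which rose at both times, share the NF-kB letters, at -89 and -70 in Cxcl1, at -80 in Ccl20 and at -154 in Csf1. In Ccl20 both NF-kB forms cover the same 9 bases. The AP-1 letters lie at -98 in Il11 and at -228 in Lif, and the upstream window of Il11 held none of the letters searched.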

How the data were processed

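The authors made the counts: per their methods and the submitters' processing notes, reads were aligned to mm9 with Subread, kept if unique, stripped of duplicates with SAMtools 0.1.19 and summed over exons by strand with featureCounts. They deposited raw counts of 21240 genes without normalization, and columns were assigned to samples by the group and replicate in their names. The analysis used edgeR 4.0.16 under R 4.3.3 (TMM factors, quasi-likelihood test, 1 fit of the 3 groups), with limma 3.58.1 and DESeq2 1.42.0 as alternatives. Tables were made with pandas 2.3.3, scipy 1.17.1 and numpy 2.4.6 under Python 3.11.15. The fit was also run on simulated data, and the outcome is not reported here. All tests are two-sided, and p-values were adjusted over all 11080 genes tested in a comparison.

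Replicates measure the spread between cultures: their squared difference exceeded that of counting error by a factor of 19.5 (vehicle), 54.0 (2 h) and 16.8 (12 h). Counting intervals are exact (Clopper-Pearson on the summed counts of both groups) and, like the floor of 3 counts, cover counting error only. For the likeness of patterns, log2 values were taken of CPM plus 0.25. Gene positions, exon lengths and neighbours are those of GENCODE (NCBIM37), matched for 18958 genes by symbol and for 1657 by synonym.

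The genes named are the 10 members, the called genes of each list (at most 4 per direction and comparison), the 2 counted genes on each side of each member, and the gene of most similar pattern for each tested member. Of the called list genes, 2 are not reported here by name. Timp3 and Il34 reached the filter only in treated libraries. Members and lists were chosen with earlier results of these data known. Receptors and other genes below the filter were named after their values had been seen. Alternatives were DESeq2 size factors, scaling to total counts, a filter of at least 10 counts in every library or none at all, limma-voom, DESeq2, only the 2 groups compared, the replicate number as a block, a prior count of 2 (which changes log2FC only and is left out of ranges of adjusted p), and each library left out in turn.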

Additional observations from a re-analysis of the deposited data

Results flagged for a closer look

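For 8 of the 9 tested genes the effect at 12 h differed from that at 2 h, by edgeR's test of 12 h against 2 h. The effect at 12 h less that at 2 h, on the log2 scale, was -3.77 for Cxcl5, -4.34 for Ccl20, -2.87 for Cx3cl1, -1.33 for Ccl2, -0.81 for Cxcl16, 3.36 for Il11, 2.07 for Lif and 1.69 for Csf1. The value of Ccl20 rests on 0 and 1 counts at 12 h, and was -2.47 with a prior count of 2 and -6.54 to -3.41 with each library left out. In Cx3cl1 and Ccl2 the effects at the 2 times had opposite signs, 1.16 and -1.70 for Cx3cl1 and 0.88 and -0.44 for Ccl2, and in Cxcl16 the effect was smaller at 12 h (0.56) than at 2 h (1.37). Time after TGFβ1 and time without serum cannot be told apart in these differences.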

How the results depend on the processing

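In the report 8 of the 9 tested genes were called at 2 h, 9 at 12 h and 8 between the times. At 2 h, 5 were called when only the 2 groups were fitted and 4 to 7 with each library left out in turn, where the lone library of a group is assumed to vary like the others. At 12 h the range was 7 to 9 and between the times 6 to 9. Of 399 values of log2FC of the members under alternatives, 366 kept direction and side of the threshold, 24 were no longer called, 6 were newly called (Cxcl1 between the times) and 3 changed sign, all of them of Lif at 2 h, which was not called (main 0.04). For Lif that value was -0.0706 with total counts and ran from -0.25 (without 2 h replicate 2) to 0.26 (without 2 h replicate 1) with each library left out, with -0.09 without vehicle replicate 1. The cause was not tested. Calls lost were, besides those of Cx3cl1, Il11, Ccl2 and Csf1 given above, Cxcl5 at 2 h in the fit of only these 2 groups (adjusted p = 0.0506 from edgeR, log2FC -3.37), Cxcl16 at 12 h without vehicle replicate 2 (0.0649) or 12 h replicate 1 (0.0708) or 2 (0.0584; log2FC 0.53 to 0.56), and, between the times, Cxcl5 without 12 h replicate 1 (0.0714) or 2 (0.0730) and Ccl20 without 12 h replicate 1 (0.0563, log2FC -3.41). For listed genes and neighbours, only values called in the main fit were followed. Of 2322 such values, 235 lost their call and none changed sign. Il11 and Ccl20 have no value with at least 10 counts in every library.

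Of all genes tested, 1098 were higher and 582 lower at 2 h, 2414 and 2385 at 12 h, and 1682 and 2093 between the times. With only the 2 groups compared, 644 were higher and 249 lower at 2 h. Total counts left 975 lower at 2 h and moved the median log2FC of all genes by -0.11 at 2 h and -0.13 at 12 h, so that 46.7% of calls were higher at 2 h (65.4% with TMM factors) and 37.5% at 12 h (50.3%). The deviations of libraries that share a number went together (r across genes 0.708, 0.263 and 0.392), but no source says that the numbers pair. With the replicate block, 1813 genes were higher and 1409 lower at 2 h, 2585 were higher between the times, and 8, 9 and 9 members were called at 2 h, at 12 h and between the times (Cxcl1 with them). With each library left out, the counts ran from 499 to 1250 higher and 138 to 950 lower at 2 h, 1333 to 2712 and 1506 to 2786 at 12 h, and 640 to 1699 and 1031 to 2122 between the times.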

Other observations

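Counts of called genes in the lists below stand beside 9.91% of all genes higher and 5.25% lower at 2 h, and 21.8% and 21.5% at 12 h, and no difference from all genes was tested. Of 14 tested NF-kB factors and feedback genes (15 listed), 4 rose and 1 fell at 2 h, and 4 rose and 4 fell at 12 h, with a median log2FC of 0.37 and -0.08. Nfkbiz, a nuclear coactivator of NF-kB at cytokine genes, had 115 and 110.1 CPM in vehicle, 39.5 and 39.0 CPM at 2 h, and 36.6 and 38.6 CPM at 12 h (log2FC -1.52 and -1.58). Bcl3, a related nuclear IkB protein, fell at 12 h (log2FC -1.70), and Tnfaip3, which encodes the inhibitor A20, rose at both times (0.96 and 0.51), the latter not without vehicle replicate 1 (edgeR's adjusted p = 0.0873) or 12 h replicate 2 (0.0979). Of 10 factors that bind or degrade cytokine mRNAs, 3 rose and 1 fell at 2 h, and 3 rose and 2 fell at 12 h, with a median of 0.13 and 0.10. Zfp36l2 rose from 58.6 and 64.5 CPM to 242 and 206 CPM at 2 h and 190.2 and 153 CPM at 12 h (log2FC 1.86 and 1.48), Zc3h12a, which encodes regnase-1, rose as well (0.83 and 0.88, at 2 h not without vehicle replicate 1, edgeR's adjusted p = 0.0891), and Zc3h12c fell (-1.18 and -1.03).

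Of 14 tested genes of JAK-STAT signalling and its inhibitors (15 listed), 4 rose and 2 fell at 2 h, and 4 rose and 4 fell at 12 h, with a median log2FC of -0.08 and 0.08. Cish, an inhibitor of cytokine signalling, went from 6 and 7 counts in vehicle to 201 and 183 at 2 h and 276 and 136 at 12 h (log2FC 4.58 and 4.56). Jak2 (log2FC 0.76), Stat3 (0.65) and Ptpn11 (0.52) also rose at 2 h, while Socs3 (-0.59) and Socs5 (-0.41) fell. At 12 h neither Stat3 (0.10) nor Socs3 (-0.29) passed the test. At 2 h the calls of Jak2, Stat3, Ptpn11, Socs3 and Socs5 were each lost in the fit of the 2 groups alone (edgeR's adjusted p = 0.0863, 0.0672, 0.0568, 0.0659 and 0.0960) and without vehicle replicate 1 (0.0636, 0.0627, 0.126, 0.109 and 0.216) or 2 (up to 0.142). Cish reached the filter only in treated libraries. Of 12 tested interferon factors and targets (19 listed), 1 fell and none rose at 2 h, and at 12 h 8 fell and 1 rose, with a median of -0.27 and -1.34. Among them Ifit2 went from 186 and 202 counts in vehicle to 44 and 62 at 12 h (log2FC -2.23), the time at which Cxcl10 had 11 and 48 counts.

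Low counts of 2 further cytokines were seen at 12 h. Csf2, which encodes GM-CSF, had 2 and 0 counts in vehicle, 1 and 1 at 2 h, and 38 and 37 at 12 h, and Il6 had 0 and 1, 5 and 1, and 18 and 16. Both were below the filter and were not tested.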
